A study of Mus musculus with 2 samples.

Results

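Transcripts of 9 genes for prostaglandin and leukotriene enzymes were followed across the leukocytes of the mouse heart. The genes were chosen by name, and all of them were found in both count tables, as 9 of 23946 genes. They were Ptgs1 and Ptgs2 (the cyclooxygenases COX-1 and COX-2), Ptges (the inducible prostaglandin E synthase), Hpgds (a prostaglandin D synthase), Hpgd (the enzyme that inactivates prostaglandins), Alox5 (5-lipoxygenase), Alox5ap (FLAP, which presents arachidonic acid to 5-lipoxygenase), Ltc4s (leukotriene C4 synthase) and Lta4h (leukotriene A4 hydrolase, which makes leukotriene B4).

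The cells were live CD45+ cells sorted from hearts of wild-type female C57BL6 mice. One group received isoproterenol (ISO), an agonist of β-adrenergic receptors, at 200 mg/kg by intraperitoneal injection, a mouse model of Takotsubo syndrome, and the other received the PBS vehicle. Hearts were taken 24 h later, 3 hearts were pooled for each condition, and 15000 cells were loaded for each 10x 3′ library. Each condition was therefore 1 library, the control library and the ISO library, so a difference between them has no replicate check and no p-value is given.

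Arachidonic acid released from membrane phospholipids enters either of these pathways. Cyclooxygenases convert it to prostaglandin H2, from which terminal synthases make prostaglandins E2, D2, I2 and thromboxane, and 15-hydroxyprostaglandin dehydrogenase, the product of Hpgd, oxidizes prostaglandins E2 and F2α to inactive forms. 5-Lipoxygenase with FLAP makes leukotriene A4, which leukotriene A4 hydrolase turns into the neutrophil attractant leukotriene B4 and leukotriene C4 synthase turns into the cysteinyl leukotriene C4. Myeloid cells are the best known source of both kinds of mediator.

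The promoters of Ptgs2, Ptgs1 and Hpgds are shown because they set the inducible cyclooxygenase beside the synthesis genes whose macrophage levels lay in the opposite direction between the libraries. Each sequence is the 250 bases before the annotated start, from RefSeq on GRCm38.p6, and reads 5′ to 3′ along the strand of the gene, with a motif found by search in capitals. The Ptgs2 stretch is chr1:150099781-150100030 on the plus strand, the Ptgs1 stretch is chr2:36230176-36230425 on the plus strand and the Hpgds stretch is chr6:65144731-65144980 on the minus strand.
Ptgs2: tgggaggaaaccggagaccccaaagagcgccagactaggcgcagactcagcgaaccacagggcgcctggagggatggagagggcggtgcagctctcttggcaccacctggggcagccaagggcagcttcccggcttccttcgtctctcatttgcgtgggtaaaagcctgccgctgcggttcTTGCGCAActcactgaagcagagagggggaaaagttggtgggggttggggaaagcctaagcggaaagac
Ptgs1: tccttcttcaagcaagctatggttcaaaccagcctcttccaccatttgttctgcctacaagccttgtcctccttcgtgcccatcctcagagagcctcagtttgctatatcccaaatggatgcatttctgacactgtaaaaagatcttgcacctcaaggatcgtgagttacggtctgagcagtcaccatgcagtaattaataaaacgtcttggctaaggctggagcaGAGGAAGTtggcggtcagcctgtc
Hpgds: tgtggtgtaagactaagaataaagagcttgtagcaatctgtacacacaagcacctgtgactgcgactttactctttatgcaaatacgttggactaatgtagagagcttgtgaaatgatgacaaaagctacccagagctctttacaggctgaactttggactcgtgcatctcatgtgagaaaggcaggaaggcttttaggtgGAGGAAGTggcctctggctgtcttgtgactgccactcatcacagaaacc
In Ptgs2 the capitals mark TTGCGCAA, the palindromic form of the site bound by C/EBP factors, 69 to 62 bases before the start. It was present on either strand in 0.183% of 32851 promoters of 300 bases (250 before and 50 after the start). In Ptgs1 and Hpgds the capitals mark GAGGAAGT, a form of the site bound by PU.1, a factor of myeloid cells, which lay 24 to 17 bases before the start of Ptgs1 and 49 to 42 bases before that of Hpgds. This motif was present in 3.20% of the promoters. The 50 bases after the Ptgs2 start held a CRE half-site (TGACG, found in 20.8% of promoters) that overlapped an E-box (CACGTG, 7.15%). A TATA box (TATAAA, 13.6%) lay after the annotated start of Hpgd, and the AP-1 motif TGANTCA (7.81%) was in none of the 8 members with a promoter entry. Alox5ap had no entry. These matches are a description of the letters and not of binding.

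The tables held 5927 barcodes for the control library and 5514 for the ISO library, of which 5641 and 5437 passed the study's filter on genes and mitochondrial UMIs. Unique molecular identifiers (UMIs) in these cells summed to 41651434 and 55443553, with a median of 4790 UMIs per cell in the control library and 8537 in the ISO library. The CD45 transcript Ptprc was found in 91.0% and 88.8% of the kept cells, and 31 and 15 cells carried stromal markers instead. The libraries shared 15 barcodes.

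Cells were placed in classes by sets of marker genes that hold no member, so a class name stands for its marker set. Resident-type macrophages carried macrophage markers (such as C1qa and Mertk) with Timd4, Lyve1, Folr2, Cd163 or Gas6, and numbered 466 in the control library and 182 in the ISO library. The other macrophage classes were MHC class II-high macrophages (319 and 53 cells), Ccr2 macrophages (129 and 708), Arg1 Spp1 macrophages (1 and 943) and other macrophages (43 and 117). Classical monocytes (Ly6c2, Chil3) numbered 36 and 816, nonclassical monocytes (Ace, Treml4) 62 and 60, and neutrophils (S100a8, Csf3r) 119 and 71. Conventional dendritic cells were split into cDC1 (51 and 84 cells) and cDC2 (43 and 237). Lymphocytes were B cells (1888 and 45), T cells (210 and 49), NK cells (417 and 31) and group 2 innate lymphoid cells, ILC2 (161 and 100). Barcodes with markers of more than 1 lineage were set apart. They numbered 141 and 698 with neutrophil and mononuclear phagocyte markers, and 1238 and 411 with other mixtures, and doublets and free RNA in these could not be told apart. A further 250 control (4.43%) and 740 ISO barcodes (13.6%) fell in no class and were left unassigned.

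Over all kept cells, Ptgs2 was higher and Hpgd lower in the ISO library. Levels are given in CPM (counts per 1000000), the UMIs of a gene per 1000000 UMIs of the cells summed. A 3′ UMI tags 1 end of each molecule, so no length scaling was applied. Intervals are 95% and cover counting error only, not the spread between animals. Ptgs2 was at 126 CPM in the control library and 678 CPM in the ISO library, 5.40-fold higher. Hpgd went the other way, with 199 CPM in the control library and 29.1 CPM in the ISO library, 6.82-fold lower. Hpgds was 4.92-fold lower (60.8 and 12.4 CPM) and Ltc4s 4.05-fold lower (64.4 and 15.9 CPM). Both 5-lipoxygenase and COX-1 transcripts were lower by near the same factor, Alox5 from 58.0 to 27.9 CPM (2.07-fold) and Ptgs1 from 36.7 to 17.9 CPM (2.05-fold). Alox5ap was 2.48-fold higher (373 and 924 CPM), and Lta4h differed by 1.38-fold (33.4 and 46.1 CPM). Ptges was nearly absent, with 5 UMIs in the control library and 74 in the ISO library, 10.2-fold higher with an interval of 4.56 to 35.2. By a cutoff of 2-fold, 3 members were higher and 5 lower, where 6.90% and 31.5% of all 15976 genes compared were higher and lower. These sums mix a change in cell classes with a change within them, and 47.4% of the control cells were lymphocytes, so the classes are taken separately from here. A difference within a class can still come from a shift in which cells its gate held, and these were not told apart. The MHC class II marker sum was at 51985 CPM in control and 9710 CPM in ISO Ccr2 macrophages. It was at 50253 and 25082 CPM in MHC class II-high macrophages. The resident marker sum of resident-type macrophages was at 2721 and 2269 CPM. In classical monocytes, Ly6c2 was at 1253 CPM in control and 583 CPM in ISO, and Plac8 at 3733 and 1765 CPM. Their markers Chil3, Hp and Vcan were higher in ISO, with Chil3 at 1217 and 8035 CPM. The macrophage marker sum of this class was at 2061 and 4717 CPM. In nonclassical monocytes each class marker was lower in ISO, such as Ace (576 and 179 CPM). There the macrophage sum was at 2195 and 3414 CPM and the classical monocyte sum at 3613 and 4472 CPM.

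**Figure D1:**
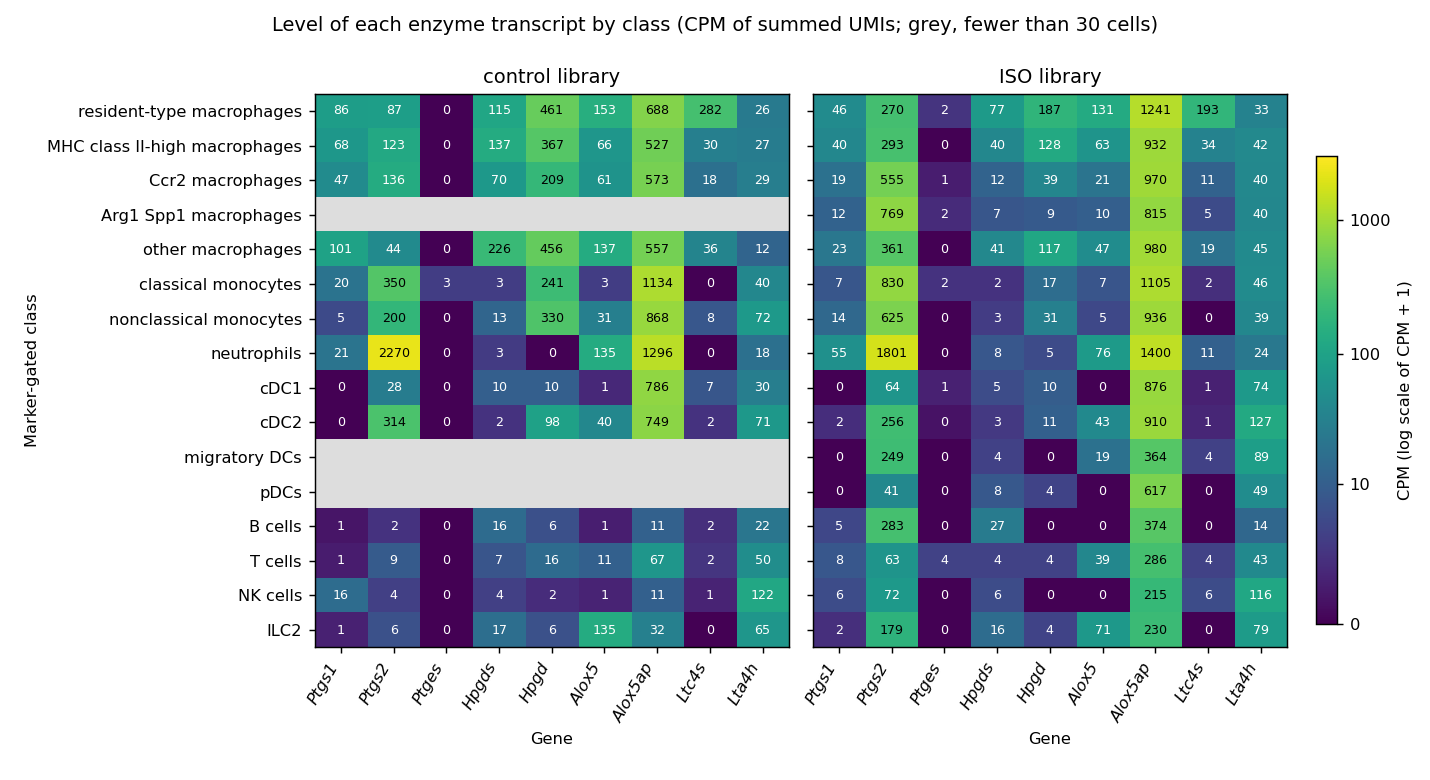
Level of each enzyme transcript (columns) in each marker-gated class (lines) in the control and ISO libraries, in CPM of summed UMIs on a log color scale, with grey where a class held under 30 cells. Neutrophils hold the highest Ptgs2 in both libraries, the Ltc4s column is bright only in resident-type macrophages, and Hpgd is brighter in the control panel in every macrophage and monocyte class drawn in both panels.

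Within classes, a member was compared where the UMIs of both libraries together reached 20, and it was called higher or lower in the ISO library at 2-fold. In all 13 classes with at least 30 cells in both libraries, 72 pairs of member and class could be compared, and 18 were higher and 17 lower, where 10.9% and 12.5% of all 100881 pairs of gene and class were. These counts depended on the processing: 7 were higher and 9 lower of 39 pairs when cells were thinned before summing, and 8 were higher and 26 lower of 54 when the pooled lymphocyte level was subtracted. Of these last counts, Lta4h gave 4 higher and 4 lower, and Alox5 gave 6 lower. Lymphocytes hold both genes, so the subtraction is not meaningful for them. With the B cell level subtracted, 10 of 67 were higher, and 6 of these were Lta4h. In resident-type macrophages 1 of 8 members was higher and 1 lower, against 7.73% and 8.33% of all genes compared. In MHC class II-high macrophages 1 of 8 was higher (9.95% of all genes) and 2 lower (11.9%). In Ccr2 macrophages 1 of 8 was higher (8.44%) and 4 lower (14.5%), and in other macrophages 2 of 8 were higher (11.5%) and 4 lower (13.9%). The count of lower members thus stood further above the share of all genes in the Ccr2 and other macrophages than in the resident-type class. In classical monocytes 1 of 6 members was higher (13.5%) and 2 lower (18.0%), and in nonclassical monocytes 1 of 4 was higher (11.6%) and 1 lower (12.0%). Neutrophils had 1 of 4 higher (19.3%) and 0 lower (12.8%), cDC1 2 of 3 higher (8.37%) and 0 lower (8.01%), and cDC2 0 of 5 higher (10.9%) and 1 lower (10.2%). Among lymphocytes, 2 of 5 members were higher in B cells (13.3%), 3 of 5 in T cells (11.8%), 1 of 3 in NK cells (9.03%) and 2 of 5 in ILC2 (10.9%). Lower members numbered 1 in B cells (15.5%), 1 in T cells (10.1%), 0 in NK cells (17.7%) and 0 in ILC2 (7.19%). Counts this small set single members against a background and are not a test of the group.

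The constitutive cyclooxygenase, Ptgs1, was highest in macrophages in the control library. In the control library it was at 101 CPM (65.3 to 149) in other macrophages, 85.9 CPM (76.6 to 95.9) in resident-type macrophages and 68.3 CPM (58.3 to 79.5) in MHC class II-high macrophages, and these neighbours overlapped in their intervals pair by pair. It was at 47.2 CPM in Ccr2 macrophages, 21 CPM in neutrophils and 16.1 CPM in NK cells, and at 0 UMIs in cDC1 and cDC2, where 3 UMIs would have been 4.46 and 6.67 CPM. The resident-type class held 46.5 CPM in the ISO library, a log2 difference of −0.88 (−1.26 to −0.53). The Ccr2 class held 18.9 CPM, a log2 difference of −1.33 (−1.75 to −0.88), and the Arg1 Spp1 class 11.5 CPM. Every macrophage class compared thus had less Ptgs1 in the ISO library. Neutrophils had 7 UMIs in the control library and 21 in the ISO library, where their 55.3 CPM (34.2 to 84.5) was the highest level and overlapped that of resident-type macrophages (36.9 to 57.8). This was a log2 difference of 1.33 (0.11 to 2.87) that turned to −0.51 when barcodes of mixed lineage were kept in their classes.

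The inducible cyclooxygenase, Ptgs2, was a neutrophil transcript first. Neutrophils were at 2270.3 CPM (2111 to 2438) in the control library and 1801 CPM (1668 to 1941) in the ISO library, a log2 difference of −0.33 (−0.49 to −0.18). The next of the classes with 30 cells or more in the control library were classical monocytes at 349.5 CPM (286 to 423) and cDC2 at 314 CPM (264 to 369.8), whose intervals overlapped, and nonclassical monocytes at 199.7 CPM (158 to 249). Among classes too small to compare, the 20 control cells with mast cell or basophil markers held 1201 CPM (989 to 1445).

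In the ISO library the mononuclear phagocytes held more Ptgs2. Classical monocytes were at 830.1 CPM (808 to 852), a log2 difference of 1.24 (0.97 to 1.54). Arg1 Spp1 macrophages, which the control library lacked but for 1 cell, were at 769 CPM (753 to 785), and nonclassical monocytes at 625 CPM, a log2 difference of 1.64 (1.29 to 2.01). Ccr2 macrophages went from 136 CPM to 555 CPM, a log2 difference of 2.03 (1.83 to 2.24), and other macrophages from 44.4 to 361 CPM. MHC class II-high macrophages went from 123 to 293 CPM (247 to 346). Resident-type macrophages were at 87.5 CPM in the control library and 269.8 CPM (246 to 295) in the ISO library, a log2 difference of 1.62 (1.42 to 1.83). Ptgs2 was higher in 10 of the 12 classes compared, of which 3 were lymphocyte classes, and neutrophils and cDC2 (256 CPM in the ISO library) were the other two. It was higher in 4 of 8 classes when cells were thinned before summing, in 3 of 9 (and lower in 2) with the pooled lymphocyte level subtracted, and in 1 of 11 (and lower in 6) with the B cell level subtracted. The ISO B cell level rested on 62 UMIs, with 93.5% of them in 5 barcodes, so this last count gives no direction.

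Lymphocytes, which are not known as a main source of COX-2, give the level against which these values can be read. Their Ptgs2 was also far higher in the ISO library. B cells held 2.26 CPM in the control library and 283 CPM (217 to 363) in the ISO library, so the ISO level in resident-type macrophages was no higher than that in B cells. All 4 lymphocyte classes together held 3.57 CPM and 156 CPM (134 to 181). The 62 Ptgs2 UMIs of the ISO B cells lay in 8 of 45 barcodes, and 93.5% of them in 5 barcodes. The 10 macrophage markers, summed, were at 200 to 566 CPM over the lymphocyte classes of the control library and at 398 to 2281 CPM over those of the ISO library, and the 5 classical monocyte markers were at 47.5 to 805 and 436 to 1787 CPM. The monocyte marker sum was lower in the ISO library in NK cells (805 and 436 CPM) and higher in the other lymphocyte classes. The monocyte markers were also higher in the ISO library in the macrophages, at 179 and 1371 CPM in the resident-type class, 136 and 1788 CPM in the MHC class II-high class and 633 and 3817 CPM in the Ccr2 class. The 8 neutrophil markers, from the class richest in Ptgs2 of those compared, were at 116 and 439 CPM in resident-type macrophages, 103 and 138 CPM in MHC class II-high macrophages, 108 and 272 CPM in Ccr2 macrophages, 171 and 1145 CPM in classical monocytes and 233 and 570.0 CPM in nonclassical monocytes. The part of carried-over RNA in these Ptgs2 values was not tested. With the pooled lymphocyte level of each library subtracted, a step chosen after seeing the data, the log2 difference was 0.96 in classical monocytes and 0.44 in resident-type macrophages, both under 2-fold.

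The share of cells with a Ptgs2 UMI gives a view that a few rich cells cannot dominate. After each cell was thinned to 1000 UMIs, 76.3% of control neutrophils (67.6 to 83.6) and 66.2% of ISO neutrophils (54.0 to 77.0) had a Ptgs2 UMI, and without thinning 89.1% and 88.7%. The thinned share was 25% and 40.3% in classical monocytes, 13.2% and 33.2% in Ccr2 macrophages, and 39.3% in the Arg1 Spp1 macrophages of the ISO library. In resident-type macrophages it was 4.51% (2.81 to 6.81) in the control library and 15.4% (10.5 to 21.5) in the ISO library, and without thinning 13.7% and 33.0%, at median depths of 6594.5 and 7173 UMIs. The pooled lymphocytes had 0.299% (0.129 to 0.589) and 5.78% (3.11 to 9.68), at median depths of 3446 and 3785 UMIs. The share and the CPM of the resident-type class thus both lay above those of the pooled lymphocytes in each library, while the ISO B cells, with a thinned share of 6.67% (1.4 to 18.3), overlapped it. In control nonclassical monocytes, 5 cells held 88.5% of the 78 Ptgs2 UMIs, and the thinned share was 3.23% against 28.3% in the ISO library. Genes of dissociation stress (10 of 10 found, such as Fos and Atf3) summed to between 3086 and 21249 CPM over the 13 compared classes of the control library and between 4550.2 and 13784 CPM over those of the ISO library. The stress sum was lower in the ISO library in 10 of 13 classes, among them resident-type macrophages (15479 and 10091 CPM) and classical monocytes (14678 and 8494 CPM), where Ptgs2 was higher, and among them it was highest in control neutrophils, where Ptgs2 was highest. The control mast cells or basophils, also rich in Ptgs2, were at 23290.0 CPM. The part of this stress response in the Ptgs2 levels was not tested.

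**Figure D2:**
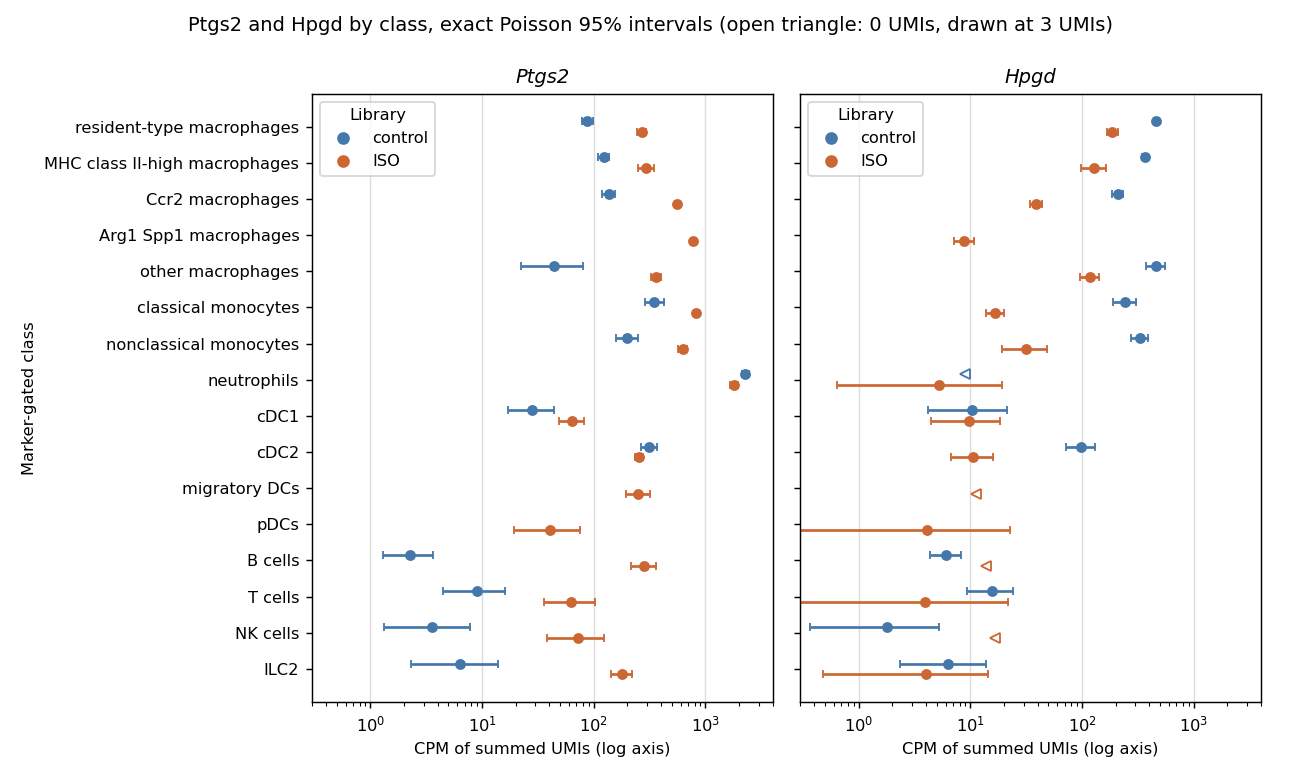
Levels of Ptgs2 (left) and Hpgd (right) in CPM of summed UMIs on a log axis, by class and library, with exact Poisson 95% intervals; an open triangle marks 0 UMIs and is drawn at the level of 3 UMIs. ISO points lie to the right of control points for Ptgs2 in every macrophage and monocyte class and to the left of them for Hpgd, and the ISO lymphocytes hold Ptgs2 at 62.7 to 283 CPM.

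Of the terminal synthases, Ptges was found too seldom to compare in any class. The 5 control UMIs comprised 2 in stromal cells, 1 in classical monocytes, 1 in mast cells or basophils and 1 in a barcode of mixed markers. Of the 74 ISO UMIs, 19 lay in Arg1 Spp1 macrophages, 15 in classical monocytes, 13 in barcodes with neutrophil and mononuclear phagocyte markers, 6 in Ccr2 macrophages and 4 in resident-type macrophages. Neutrophils, the richest class for Ptgs2, had 0 Ptges UMIs in either library, where 3 UMIs would have been 9 CPM in the control library and 7.90 CPM in the ISO library. The gene overlaps Gm13400 on the same strand.

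Hpgds, the prostaglandin D synthase of blood cells, was a macrophage transcript with higher levels in the control library. It was at 226 CPM (171 to 294) in other macrophages, 137 CPM (123 to 153) in MHC class II-high macrophages and 115 CPM (104 to 126) in resident-type macrophages of the control library, and the intervals of the last pair overlapped. Ccr2 macrophages held 69.8 CPM. In the ISO library the resident-type macrophages had the highest level among the macrophage classes, 76.9 CPM (64.4 to 91.1), followed by other macrophages at 40.7 CPM and MHC class II-high macrophages at 39.8 CPM. The Ccr2 and Arg1 Spp1 classes were at 11.8 and 7.49 CPM. The log2 difference was −2.57 (−3.01 to −2.14) in Ccr2 macrophages, −2.47 (−3.12 to −1.85) in other macrophages, −1.75 (−2.54 to −1.12) in MHC class II-high macrophages and −0.57 (−0.87 to −0.29) in the resident-type class. Hpgds was lower in 3 of 6 classes compared and higher in 0. Mast cells, a well known source of prostaglandin D2, were few here, with 5 Hpgds UMIs in 20 control cells and 7 in 4 ISO cells.

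Hpgd, the breakdown enzyme, was shared by macrophages and monocytes of the control library and was lower in each of those classes in the ISO library. Control levels were 461 CPM (440 to 484) in resident-type macrophages, 456 CPM (376 to 549) in other macrophages, 367 CPM (343 to 392) in MHC class II-high macrophages, 330.3 CPM (276 to 393) in nonclassical monocytes, 241 CPM (189 to 303) in classical monocytes and 209 CPM (186 to 233) in Ccr2 macrophages. Each pair of neighbours in this order overlapped in their intervals. It was at 97.9 CPM in cDC2 and 10.4 CPM in cDC1, and neutrophils had 0 UMIs in 119 cells, where 3 UMIs would have been 9 CPM. Hpgd overlaps Gm45540 on the same strand.

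In the ISO library Hpgd kept its highest level in resident-type macrophages, 187 CPM (167 to 208), with a log2 difference of −1.30 (−1.48 to −1.13) from the control library. MHC class II-high macrophages held 128 CPM, other macrophages 117 CPM, Ccr2 macrophages 38.6 CPM and nonclassical monocytes 31.4 CPM. Classical monocytes were at 16.7 CPM (13.8 to 20.1), a log2 difference of −3.85 (−4.29 to −3.40), and Arg1 Spp1 macrophages at 8.79 CPM (7.16 to 10.7), where the pooled lymphocytes were at 2.59 CPM (0.534 to 7.56). The differences were widest in monocytes and cDC2, at 14.4-fold for classical monocytes, 10.3-fold for nonclassical monocytes and 9.19-fold for cDC2, against 2.47-fold in the resident-type class. The thinned share of cells with an Hpgd UMI was 33.3% and 1.59% in classical monocytes, 29% and 3.33% in nonclassical monocytes, 21.7% and 2.40% in Ccr2 macrophages, and 34.3% and 15.9% in resident-type macrophages. Without thinning the classical monocyte shares were 63.9% and 6.13%, and the 73 control UMIs lay in 23 of 36 cells. Pooled lymphocytes had a thinned share of 0.374% in the control library and of 0% (up to 1.63%) in the ISO library. Hpgd was lower in 9 of 9 classes compared, of which B cells and T cells rested on 0 and 1 ISO UMIs. In B cells 3 ISO UMIs would have been 13.7 CPM, above the control level of 6.06 CPM, so a difference there was not detectable at this depth.

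Set against each other, the transcripts for synthesis and breakdown shifted toward synthesis in every macrophage and monocyte class compared. The UMIs of Ptgs1, Ptgs2, Ptges and Hpgds were summed and divided by those of Hpgd, which compares transcripts and not enzyme activity. In resident-type macrophages the log2 ratio was −0.68 (−0.79 to −0.57) in the control library and 1.08 (0.89 to 1.28) in the ISO library. In Ccr2 macrophages it was 0.27 (0.06 to 0.50) and 3.92 (3.75 to 4.11). In classical monocytes it was 0.64 (0.21 to 1.09) and 5.65 (5.38 to 5.94). Nonclassical monocytes went from −0.60 to 4.32 and cDC2 from 1.68 to 4.60. Without Ptgs2, the log2 ratio stayed below 0 in these classes in both libraries: −1.20 and −0.57 in resident-type macrophages, −0.83 and −0.29 in Ccr2 macrophages, −3.11 and −0.48 in classical monocytes. In other macrophages it was −0.48 and −0.89. Leaving out Ptgs2 thus cut the shift between libraries from 1.76 to 0.63 in resident-type macrophages and from 3.65 to 0.55 in Ccr2 macrophages, and from 5.01 to 2.63 in classical monocytes. It raised the shift from 2.92 to 3.86 in cDC2 and reversed it from 2.14 to −0.41 in other macrophages. Without Ptgs2, synthesis in control cDC2 rested on 1 Hpgds UMI against 44 of Hpgd. In control classical monocytes it rested on 6 Ptgs1, 1 Hpgds and 1 Ptges UMIs against 73 of Hpgd. No intervals are given for the ratios without Ptgs2. Neutrophils stood apart, with 765 synthesis UMIs against 0 of Hpgd in the control library and 708 against 2 in the ISO library. The shift was not particular to macrophages and monocytes. It was 5.53 in B cells, 3.63 in T cells, 3.46 in ILC2 and 1.46 in NK cells, from 0, 1, 2 and 0 Hpgd UMIs in the ISO library.

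**Figure D3:**
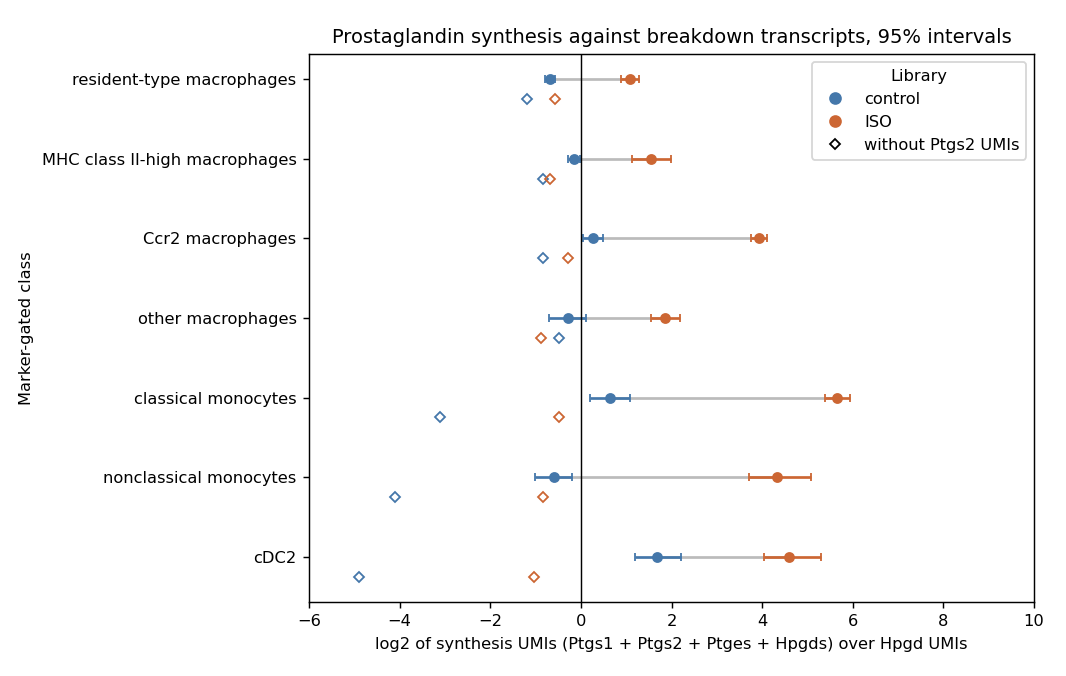
Log2 of the summed synthesis UMIs (Ptgs1, Ptgs2, Ptges and Hpgds) over Hpgd UMIs by class, as filled points with 95% intervals for the control and ISO libraries, and as open diamonds with Ptgs2 left out. Filled ISO points lie above 1 in all 7 classes drawn, while the diamonds lie below 0 in both libraries. The lymphocyte classes, where the ratio with Ptgs2 also shifted toward synthesis, are not drawn.

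In the leukotriene arm, Alox5 was held by macrophages, neutrophils and ILC2 among the larger classes. Its highest level was in the few mast cells or basophils, 257 CPM (165 to 383) in 20 control cells and 241 CPM (88.3 to 524) in 4 ISO cells. In the control library it was at 153 CPM (140.1 to 166) in resident-type macrophages, 137 CPM (95.1 to 192) in other macrophages, 135 CPM (113 to 161) in ILC2 and 135 CPM (98.4 to 181) in neutrophils, and all of these intervals overlapped. MHC class II-high macrophages held 65.9 CPM and Ccr2 macrophages 60.5 CPM. Classical monocytes, the precursors of many macrophages, had 1 UMI in 36 control cells and 7.31 CPM in the ISO library. In the control library cDC1 and B cells were at or under 1.49 CPM. Both had 0 UMIs in the ISO library, where 3 UMIs would have been 3.24 and 13.7 CPM. The ISO level of the resident-type class was 131 CPM (114 to 149), a log2 difference of −0.22 (−0.45 to 0.00). Ccr2 macrophages were at 21 CPM, a log2 difference of −1.53 (−1.92 to −1.13), and other macrophages at 47.4 CPM, a log2 difference of −1.54 (−2.22 to −0.84). ILC2 were at 71.4 CPM (−0.91; −1.50 to −0.38) and neutrophils at 76.3 CPM (−0.81; −1.55 to −0.12). Alox5 was higher in 1 of 9 classes compared and lower in 2; the higher one was T cells, with 13 and 10 UMIs.

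The helper Alox5ap was far more widespread than Alox5 and was held by every myeloid class. Over the myeloid classes of 30 cells or more in the control library it ranged from 527 CPM (499 to 557) in MHC class II-high macrophages to 1296 CPM (1176 to 1424) in neutrophils, with classical monocytes at 1134 CPM (1018 to 1261) and cDC1 at 786 CPM (721 to 856). The 20 control mast cells or basophils were at 1576 CPM (1332 to 1853). Neutrophils of the ISO library were at 1400.5 CPM, resident-type macrophages at 1241 CPM (1189 to 1294) and classical monocytes at 1105 CPM. The resident-type class had the largest log2 difference among the macrophages, 0.85 (0.77 to 0.93), and all 4 macrophage classes compared lay between 0.76 and 0.85. Monocytes and neutrophils differed by less, −0.04 (−0.19 to 0.12) in classical monocytes, 0.11 (−0.09 to 0.31) in nonclassical monocytes and 0.11 (−0.07 to 0.30) in neutrophils. Alox5ap was higher in 4 of 13 classes compared, and these were the 4 lymphocyte classes, which went from between 10.7 and 67.1 CPM to between 215 and 374 CPM. Of the marker sums given with Ptgs2, the macrophage sum was higher in all 4 of them. The monocyte sum was higher in all of them but NK cells, where it was lower.

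Ltc4s was the most concentrated member. Resident-type macrophages held 282 CPM (265 to 299.7) in the control library and 193 CPM (173 to 215) in the ISO library, and no other class of 30 cells or more with markers of 1 lineage exceeded 36.3 CPM in either library. The log2 difference in this class was −0.55 (−0.73 to −0.37). The class held 38.3% of all Ltc4s UMIs of the control library in 8.26% of its cells, and 38.2% of those of the ISO library in 3.35% of its cells, and most of the remaining UMIs lay in barcodes of mixed markers. A thinned share of 22.1% (18.4 to 26.1) of control and 18.7% (13.3 to 25.1) of ISO resident-type cells had an Ltc4s UMI, against 2.33% and 0.706% in Ccr2 macrophages and 0.224% and 0% (up to 1.63%) in pooled lymphocytes. Ltc4s was higher or lower by 2-fold in 0 of 4 classes compared, whereas over the whole libraries it was 4.05-fold lower. It was lower in 2 of 4 classes with gates on thinned counts and with the top 5% of cells left out, and in 1 class with looser or stricter gates, with no purity limit and with the pooled lymphocyte level subtracted. The gene overlaps Gm26542 on the opposite strand, and the strand setting of the counting was not given.

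Lta4h, on the leukotriene B4 side, had its highest level outside the macrophages. NK cells were at 122 CPM (106 to 140.1) in the control library and 116 CPM (71.8 to 177) in the ISO library, a log2 difference of −0.04 (−0.80 to 0.58). The next in the control library were nonclassical monocytes at 71.7 CPM, cDC2 at 71.2 CPM, ILC2 at 65.5 CPM and T cells at 49.9 CPM, and the intervals of neighbours overlapped. In the ISO library cDC2 were at 127 CPM (112 to 143), a log2 difference of 0.82 (0.30 to 1.41), and cDC1 went from 29.7 to 74.4 CPM, a log2 difference of 1.30 (0.59 to 2.12). Neutrophils were at 18.0 and 23.7 CPM, from 6 and 9 UMIs. Lymphocytes held 34.7% of the Lta4h UMIs in 47.4% of the cells of the control library, and 2.93% in 4.14% of those of the ISO library. After thinning, 12.5% (9.48 to 16.1) of control NK cells and 19.4% (7.45 to 37.5) of ISO NK cells had an Lta4h UMI, against 2.17% of control B cells. Lta4h was higher in 2 of 12 classes compared, cDC1 and other macrophages, the latter from 3 control UMIs. It was higher in 0 of 10 classes with gates on thinned counts, and in 0 of 5 (and lower in 1) with cells thinned before summing.

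**Figure D4:**
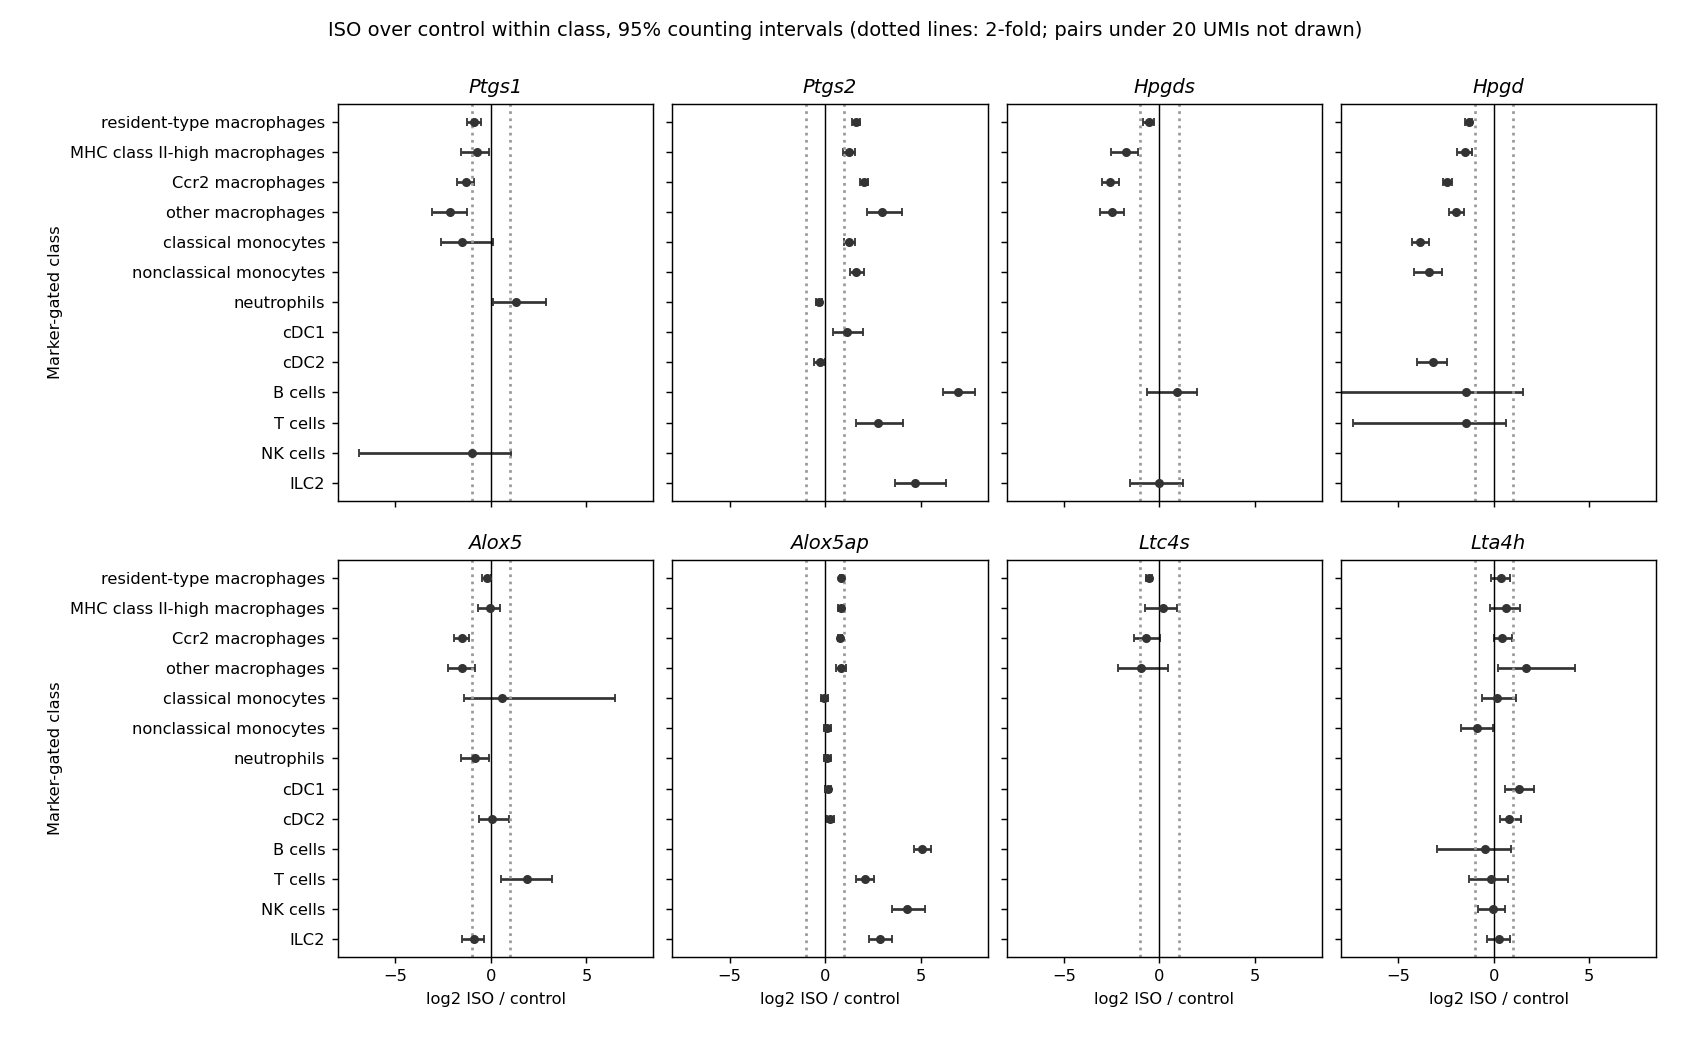
Log2 of the ISO level over the control level for the 8 members with enough UMIs, by class, with 95% counting intervals and dotted lines at 2-fold; pairs under 20 UMIs are not drawn. Hpgd points lie left of 0 in all 9 classes drawn, Ptgs2 points lie right of it in all but neutrophils and cDC2, and Alox5ap lies within the 2-fold lines except in lymphocytes.

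Leukotriene synthesis needs 5-lipoxygenase and FLAP in the same cell, so the 2 transcripts were counted cell by cell. Of control resident-type macrophages with an Alox5 UMI, 250 of 261 (95.8%; 92.6 to 97.9) also had an Alox5ap UMI, and so did 32 of 33 neutrophils (97%). Alox5ap was found in 89.7% of all cells of this macrophage class and in 92.4% of all neutrophils, so these shares lay near the share over all cells. In control ILC2 it was 5 of 68 (7.35%; 2.43 to 16.3), beside 3.73% of all ILC2, and in ISO ILC2 5 of 25 (20%; 6.83 to 40.7), beside 18% of all ILC2. After thinning to 1000 UMIs the counts were 39 of 63 in the resident-type class, 8 of 11 in neutrophils and 0 of 24 in ILC2 of the control library. ILC2 thus held Alox5 at the level of the macrophages and neutrophils with Alox5ap found in few of the same cells. Alox5, Alox5ap and Ltc4s were found together in 36.9% (32.5 to 41.5) of control and 41.8% (34.5 to 49.3) of ISO resident-type macrophages, and after thinning in 3% and 2.2%. Ptgs1 and Hpgds were found together in 22.7% and 14.8% of them, and after thinning in 1.07% (0.349 to 2.49) and 0% (up to 2.01%). Counted singly, Ptgs1 was found in 208 and Hpgds in 214 of the 466 control cells. Whether the 2 met in a cell more often than these counts would give was not tested.

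The share of each member's UMIs held by the classes shows the division between cells. Of control Ptgs2 UMIs, neutrophils held 14.5% in 2.11% of the cells and macrophages 16%. Of ISO Ptgs2 UMIs, neutrophils held 1.82%, macrophages 36.2% and monocytes 15.9%, and Arg1 Spp1 macrophages alone held 23.8% and classical monocytes 14.8%. Macrophages held 36.4% of Hpgd UMIs in the control library and 52.7% in the ISO library. In the control library the barcodes of other mixed markers held 39.1% of Ptgs2 and 51.9% of Hpgd UMIs, so much of each transcript could not be given to 1 class. Barcodes with neutrophil and mononuclear phagocyte markers held 18.8% of control and 27.1% of ISO Ptgs2 UMIs.

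**Figure D5:**
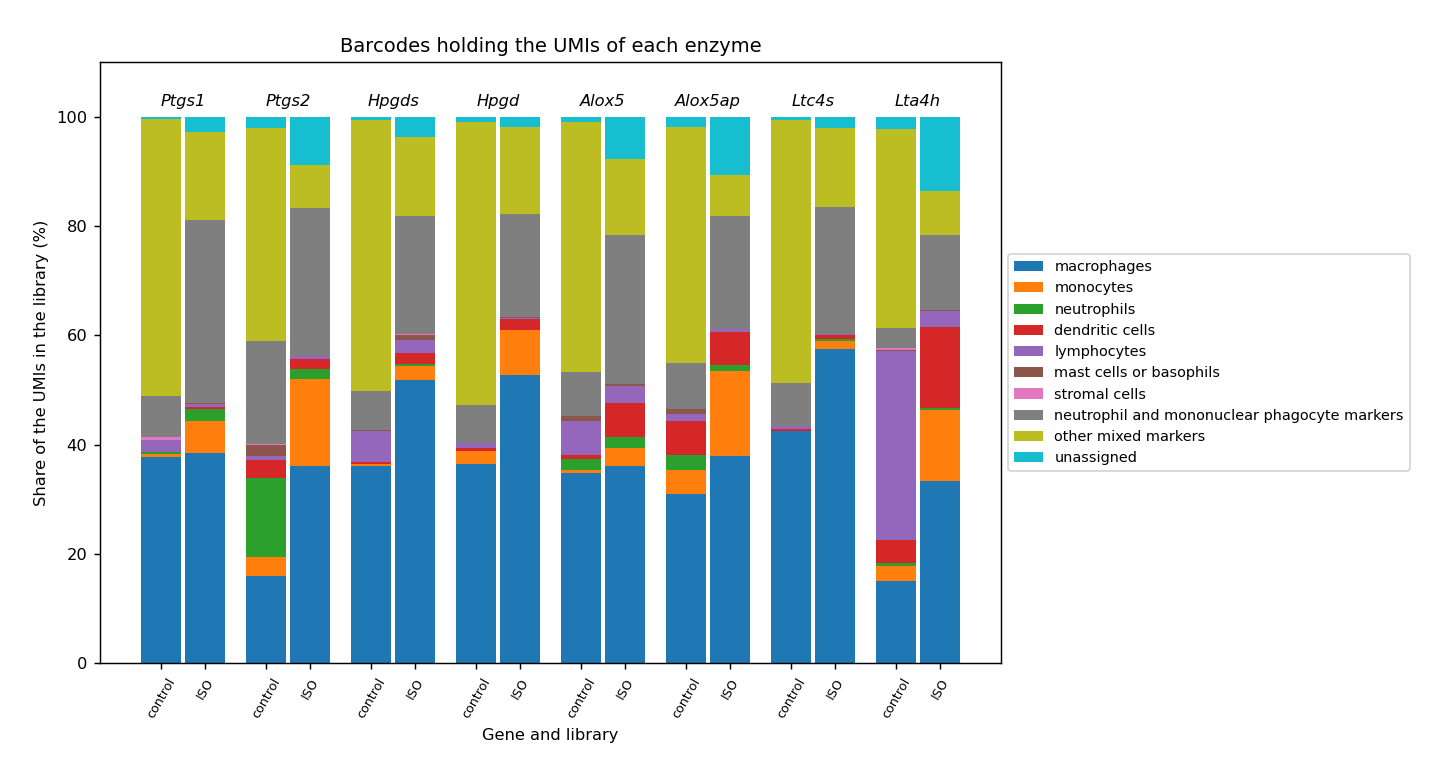
Share in percent of each member's UMIs held by groups of classes, as stacked bars for the control and ISO libraries (Ptges is left out, with 5 and 74 UMIs). Lymphocytes hold 34.7% of Lta4h in the control library, and barcodes of mixed markers hold a large share of every member.

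Other genes of arachidonic acid metabolism were compared in the same way. A list of 57 phospholipases, prostanoid synthases, inactivating enzymes, other lipoxygenases and receptors had 55 in the tables. Over the 13 classes 278 pairs of listed gene and class were compared, and 65 were higher and 22 lower, where 10.9% and 12.5% of all pairs were. In resident-type macrophages 5 of 30 were higher and 2 lower (7.73% and 8.33% of all genes), and in Ccr2 macrophages 7 of 31 were higher and 5 lower (8.44% and 14.5%). In classical monocytes 13 of 31 were higher and 3 lower (13.5% and 18.0%), and in B cells 7 of 25 were higher and 5 lower (13.3% and 15.5%). In the Ccr2 class the median log2 difference was 0.06 for the list, −1.0 for the members and −0.12 for all genes, and in classical monocytes it was 0.87, 0.06 and −0.18. Tbxas1, the thromboxane synthase, was at 164 CPM in control and 111 CPM in ISO resident-type macrophages. Cyp4f18, which oxidizes leukotriene B4, was at 603 CPM in control and 316 CPM in ISO neutrophils. Dpep2, a dipeptidase that acts on leukotriene D4, was at 166 CPM in control and 231 CPM in ISO other macrophages. Receptors were ranked only over classes of at least 100 cells in a library, which left out the smaller classes. Among these, ILC2 held the most Ltb4r1, the leukotriene B4 receptor, with 250.4 CPM in the control library and 411 CPM in the ISO library. They also held the most Ptgir, the prostacyclin receptor, with 165 and 95.3 CPM. Ptger4, a prostaglandin E2 receptor, was highest by the same ranking in MHC class II-high macrophages of the control library, at 127 CPM, and was at 69.1 CPM in those of the ISO library.

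Across the 21 combinations of class and library with at least 50 cells, the members fell into different patterns. These correlations are Pearson's r of log2(CPM + 10), are descriptions only, and their points share libraries and depth. Ptgs2 and Alox5ap had an r of 0.83, Hpgds and Hpgd 0.82, and Hpgds and Ltc4s 0.82, while Ptgs2 and Hpgd had 0.07. Lta4h was negative with Ptgs1, at −0.50. The genes most like Ptgs2 in pattern were Clec4e (0.97), Slc16a3 (0.96) and Ccrl2 (0.96). Those most like Hpgd were Abhd12 (0.97), Lilra5 (0.97) and Tlr7 (0.92), and those most like Ltc4s were Adamtsl5 (0.96), Efcab4a (0.95) and Siglec1 (0.94).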

How the data were processed

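The deposited files were UMI counts per gene and cell for the control and ISO libraries. According to the submitters' processing notes, the authors used bcl2fastq 2.19.1.403, UMI-tools 1.0.0, STAR 2.7.3a and featureCounts 1.6.4 on mm10. The strand setting was not given in the sources used here. The study's cell filter was applied (over 500 genes, below 6000 genes, mitochondrial share below 25%). No doublet caller was run. Cells were gated by marker UMIs per 10000 and a minimum number of markers found, and barcodes with markers of more than 1 lineage were set apart. The cutoffs were set after the data, including member levels in earlier groupings, had been seen, and the members and gene lists were chosen with earlier results of these data known. Within 25% of the macrophage cutoff lay 117 control cells (2.07%) and 680 ISO cells (12.5%). For the classical monocyte cutoff these were 364 (6.45%) and 600 (11.0%), where the class itself held 36 control cells. They were 297 (5.27%) and 106 (1.95%) for the resident macrophage cutoff, 23 and 143 for neutrophils, and 175 and 76 for B cells. UMIs were summed by class and library and given as CPM with exact Poisson 95% intervals. Ratios added 0.5 UMI, with exact conditional intervals, and needed at least 20 UMIs and 30 cells per class in both libraries. Shares were computed after thinning cells to 1000 UMIs (leaving out 14 control and 0 ISO cells), with Clopper-Pearson intervals. Intervals and floors (3 UMIs) cover counting error only. Named genes were the 9 members; in each role of the pathway list, up to 3 genes with the highest level, at 50 CPM or more in a class of at least 100 cells; and, for each member, the 3 genes most alike in pattern. The most informative of these are given. Both samples carry the same treatment text in the labels, and the groups come from their titles. The ratio step was tested on simulated UMI sums for resident-type macrophages, and the other steps were not tested in this way. Python 3.11.15, numpy 2.4.6, scipy 1.17.1, pandas 2.3.3 and matplotlib 3.10.9 were used.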

Additional observations from a re-analysis of the deposited data

How the results depend on the processing

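No paired analysis was possible because each condition was 1 library, and no replicate could be left out. The direction of Hpgd was lower in the ISO library under every alternative tried in resident-type macrophages, Ccr2 macrophages and monocytes. A minimum of 1000 genes or a limit of 10% mitochondrial UMIs moved none of the 72 ratios by more than its interval, and median-of-ratios scaling moved 2. With looser gates, the log2 difference was 2.02 for Ptgs2 and −1.66 for Hpgd in resident-type macrophages and −2.76 for Hpgd in Ccr2 macrophages. With barcodes of mixed lineage kept in their classes, Hpgd in resident-type macrophages was at −1.10, Ptgs1 in neutrophils reversed to −0.51 and Alox5 in T cells to −0.67. The synthesis over breakdown log2 ratio in resident-type macrophages was then −0.47 in the control and 1.52 in the ISO library, neutrophils held 33.1% and 24.4% of Ptgs2 UMIs, and resident-type macrophages 77.3% and 54.4% of Ltc4s UMIs. With gates on thinned counts, Ptgs2 was at 1.38 and Hpgd at −1.13 in resident-type macrophages, Hpgd at −2.14 in Ccr2 macrophages, Ptgs2 at 1.85 in classical monocytes, Ptgs1 in neutrophils reversed to −0.24, and 27 pairs of member and class were lower. With cells thinned before summing, Ptgs2 was at 1.36 in resident-type macrophages and 0.93 in classical monocytes and Hpgd at −3.12 in Ccr2 macrophages, 7 pairs were higher and 9 lower, and the synthesis over breakdown ratio was −0.89 (control) and 0.73 (ISO) in resident-type macrophages, 4.40 in ISO Ccr2 macrophages and 5.36 in ISO classical monocytes. Without the top 5% of cells by UMIs, Ptgs2 was at 1.30 in resident-type macrophages.

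Subtracting the B cell level of each library reversed Ptgs2 in resident-type macrophages (−8.22), MHC class II-high macrophages (−3.42), cDC1 (−5.63), T cells (−1.87) and ILC2 (−2.22), and Alox5ap in T cells (−4.85) and ILC2 (−4.42). It left Ptgs2 at 0.65 in classical monocytes and 10 pairs higher. Subtracting the pooled lymphocyte level, chosen after seeing the data, left Ptgs2 at 0.44 in resident-type macrophages and 0.96 in classical monocytes, reversed Ptgs2 in cDC1 (−5.56) and Lta4h in other macrophages (−1.84), and gave 8 pairs higher and 26 lower. It is not meaningful for Alox5 and Lta4h, which lymphocytes hold. Large negative values arise where the subtracted level exceeds the class's own. Thinning to 2000 UMIs moved 81 shares of cells and left 153. With no minimum of UMIs, 36 pairs were higher and 26 lower. Apart from these constructions, the cause of each shift was not tested.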
